A study of Mus musculus with 5 samples.

Results

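The Pax genes were taken by symbol, Pax1 to Pax9, and looked up in the 6 gene and promoter tables and the 3 peak lists that the authors deposited for mouse embryonic stem cells. The family counted 9 members among 21031 protein-coding genes with a RefSeq mRNA. In column 1 of the authors' deposited tables, 8 Pax symbols stood in a promoter table and 7 in a whole-gene table. Pax4 stood in none. Pax6 had its own promoter row, but its whole-gene row carried the name Pax6os1 with the accessions of Pax6, and it was counted as Pax6 by accession.

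Pax proteins are transcription factors that bind DNA through a paired domain and set the identity of organs and cell lineages in the embryo. They fall into 4 groups of close relatives, which are Pax1 with Pax9, Pax2 with Pax5 and Pax8, Pax3 with Pax7, and Pax4 with Pax6. Genes of this kind are textbook targets of Polycomb repression in embryonic stem cells, where they are held silent until differentiation. Ring1b (Rnf2) is the catalytic subunit of Polycomb repressive complex 1, and KAP1 (Trim28) is a corepressor best known for silencing endogenous retroviruses through zinc finger proteins.

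The study mapped both proteins by chromatin immunoprecipitation and sequencing in 5 libraries, 1 in each group. For KAP1, chromatin came from the KAP1 fl/fl line after ethanol vehicle and after 4-hydroxytamoxifen. For Ring1b, it came from the Ring1b fl/fl line after each of the same agents, and from the KAP1 fl/fl line after 4-hydroxytamoxifen. All the cells carried floxed alleles and were kept on irradiated mouse embryonic fibroblast feeders, and agent or vehicle was given for 24 h before 48 h of further culture. During those 48 h tamoxifen was kept for Ring1b fl/fl cells and absent for KAP1 fl/fl cells. The sources used here give neither the promoter that drives Cre nor the number of clones behind each line. Peak lists hold no expression values, so the labelled cell type could not be checked against its markers, and what feeder chromatin added was not tested.

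The KAP1 list held 82775 peaks of vehicle cells called against tamoxifen cells of the same line, and the Ring1b list held 13516 peaks called in the same way in the Ring1b fl/fl line. The knockout list held 8928 Ring1b peaks of KAP1 fl/fl tamoxifen cells, called against Ring1b fl/fl tamoxifen cells, a different line. KAP1 and Ring1b were therefore mapped in different lines, and line and protein cannot be told apart. With 1 library in each group there was no replicate check, no spread between samples and no test between conditions, and every value below describes these lists. The peak score is the authors' own, 10 times the −log10 p of a peak, and it ranks peaks within 1 list only. The Ring1b score had a median of 116 and an upper quartile of 421, and 732 peaks were tied at 3100, its commonest value. The KAP1 score had a median of 96.2 and an upper quartile of 156. For read depth, the sources used here give no value.

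Coordinates are those of GRCm38 (mm10), counted from 1. A start window reached 1 kb to each side of a transcript start from the authors' tables or RefSeq, and a locus was the annotated gene with 5 kb on each side. The reference used here gives no exons, so positions inside a gene are given as gene body without separating exons from introns. RefSeq promoter sequences, from 250 bases before a start to 50 bases after it, were at hand for 7 Pax genes with 10 starts in all. The 7 printed below, from GRCm38.p6, show the family's contrasts: the first and the third Pax2 start, in order of position, with few and many CG pairs, the first Pax6 start and the Pax9 start under both proteins, Pax5 and Pax7 under Ring1b alone, and Pax8 under neither. They read 5′ to 3′ on the gene's strand, with each CG in capitals.
Pax2 start at 44746601, chr19:44746351-44746650, plus strand: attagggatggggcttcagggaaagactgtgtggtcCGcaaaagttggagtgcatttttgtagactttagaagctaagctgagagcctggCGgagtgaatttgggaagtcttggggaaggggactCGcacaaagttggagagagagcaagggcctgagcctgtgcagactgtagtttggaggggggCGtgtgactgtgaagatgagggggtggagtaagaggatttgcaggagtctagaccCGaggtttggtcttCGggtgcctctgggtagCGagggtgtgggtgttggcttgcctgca
Pax2 start at 44756906, chr19:44756656-44756955, plus strand: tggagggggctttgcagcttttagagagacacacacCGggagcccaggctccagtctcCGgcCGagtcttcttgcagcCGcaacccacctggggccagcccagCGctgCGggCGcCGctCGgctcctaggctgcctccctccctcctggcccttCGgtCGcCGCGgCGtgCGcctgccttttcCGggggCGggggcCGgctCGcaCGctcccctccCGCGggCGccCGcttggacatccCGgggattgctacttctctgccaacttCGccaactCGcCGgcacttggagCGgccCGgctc
Pax5 start, chr4:44710645-44710944, minus strand: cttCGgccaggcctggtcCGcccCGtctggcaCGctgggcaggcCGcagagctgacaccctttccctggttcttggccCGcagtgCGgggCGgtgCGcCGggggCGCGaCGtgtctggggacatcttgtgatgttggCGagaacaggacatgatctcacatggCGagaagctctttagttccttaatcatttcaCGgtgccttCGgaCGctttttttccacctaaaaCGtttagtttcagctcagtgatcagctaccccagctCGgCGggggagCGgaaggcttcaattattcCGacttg
Pax6 start at 105668896, chr2:105668646-105668945, plus strand: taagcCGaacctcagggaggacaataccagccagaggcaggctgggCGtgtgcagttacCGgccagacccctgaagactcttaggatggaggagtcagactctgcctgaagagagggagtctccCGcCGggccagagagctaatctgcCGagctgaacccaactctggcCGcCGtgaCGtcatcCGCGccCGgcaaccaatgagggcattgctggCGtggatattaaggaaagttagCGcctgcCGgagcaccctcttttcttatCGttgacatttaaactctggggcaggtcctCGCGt
Pax7 start, chr4:139832919-139833218, minus strand: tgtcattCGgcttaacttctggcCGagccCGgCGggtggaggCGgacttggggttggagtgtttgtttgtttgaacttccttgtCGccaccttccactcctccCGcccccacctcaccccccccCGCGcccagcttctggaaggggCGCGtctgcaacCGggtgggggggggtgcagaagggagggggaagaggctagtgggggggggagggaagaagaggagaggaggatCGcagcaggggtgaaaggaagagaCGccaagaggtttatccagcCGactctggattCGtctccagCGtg
Pax8 start, chr2:24475550-24475849, minus strand: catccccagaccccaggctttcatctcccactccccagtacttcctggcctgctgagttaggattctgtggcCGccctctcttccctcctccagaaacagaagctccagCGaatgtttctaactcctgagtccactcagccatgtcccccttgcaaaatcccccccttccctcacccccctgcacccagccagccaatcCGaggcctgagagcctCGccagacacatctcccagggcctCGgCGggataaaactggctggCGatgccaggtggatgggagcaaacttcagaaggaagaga
Pax9 start, chr12:56695221-56695520, plus strand: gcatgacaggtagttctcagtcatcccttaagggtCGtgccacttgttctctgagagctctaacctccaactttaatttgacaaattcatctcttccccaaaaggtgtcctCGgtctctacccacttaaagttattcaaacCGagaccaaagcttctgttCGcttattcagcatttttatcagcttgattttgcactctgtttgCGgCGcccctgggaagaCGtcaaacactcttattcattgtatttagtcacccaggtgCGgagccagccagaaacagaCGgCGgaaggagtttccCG

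Over the 10 Pax windows the CG count ran from 7 to 30 with a median of 16.5, against a median of 14 over all 20488 windows of protein-coding genes. Of the 10 windows, 9 met a Ring1b peak, where 23.5% of all windows did, and 6 met a KAP1 peak, where 53% did. The third Pax2 start was the richest with 30 CG, more than 84.1% of all windows, and lay wholly under both peaks. The first Pax2 start and the Pax8 start had 7 each, more than 34.0% of all windows. The former lay under both proteins and the latter under neither, so windows with the same CG count differed in their peaks. Pax9 had 11 CG, Pax1 13, Pax6 18 at its first and 16 at its last start, Pax7 17, and Pax5 and the second Pax2 start 23. Over all genes the median was 24 CG in windows with both proteins, 21 with KAP1 alone, 19 with Ring1b alone and 3 with neither. On either strand, TATAAA was in 0 of the 10 Pax windows and in 12.4% of all windows, CCAAT in 3 and in 38.4%, and GGGCGG in 6 and in 47.6%. GGGCGG contains a CG and so shares letters with the CG count, while the other motifs contain none. A match describes letters and not a bound site.

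**Figure D1:**
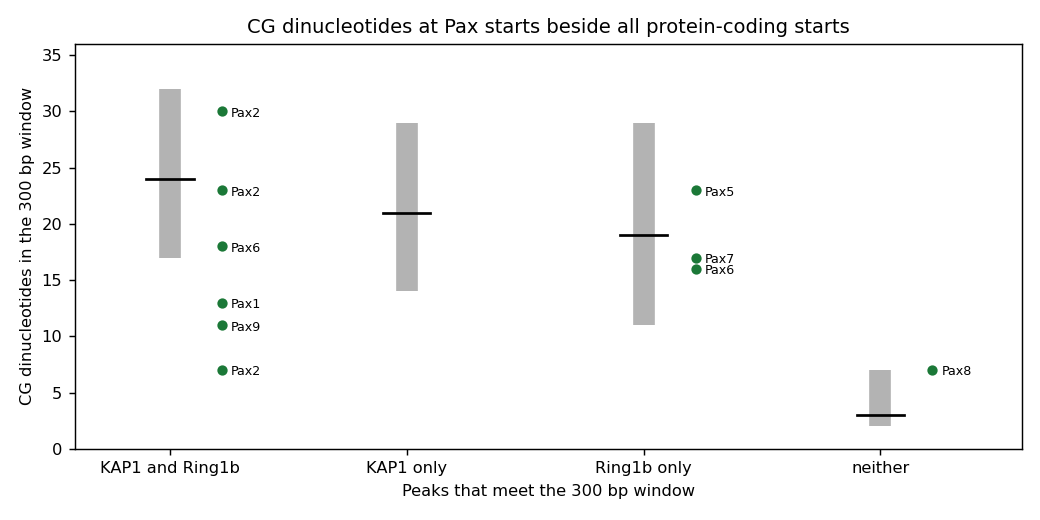
Number of CG pairs (y) in each of the 10 RefSeq promoter windows of 300 bases of 7 Pax genes (points), by the peaks they meet (x), beside the median (line) and quartiles (grey bar) of all protein-coding windows. Pax2 held both the lowest and the highest count, 7 and 30, and the Pax8 window, with 7, met neither protein.

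Ring1b was listed at the promoters of 8 Pax genes, and KAP1 stood beside it at 6 of them. In the authors' deposited table of promoters with both proteins stood 6 Pax genes, Pax1, Pax2, Pax3, Pax6, Pax8 and Pax9, where the same class held 24.8% of all genes. The authors' deposited table of promoters with Ring1b alone held Pax5 and Pax7, 2 of 9, against 4.04% of all genes. The authors' deposited table of KAP1 alone held 0 of 9, against 34.3% of all genes. Pax4, in no promoter class, was with 37.5% of all genes. In the authors' deposited whole-gene tables, 8 Pax genes were in the class with both proteins, against 30.7% of all genes, and Pax4 was again in none, with 36.6% of genes. The 8 thus had KAP1, against 61.4% of all genes, and Ring1b, against 32.7%, and the Ring1b class held 0 of 9, against 2.06%. Pax5 and Pax7 thus moved from the Ring1b class at the promoter to the class with both proteins over the whole gene.

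In the peak lists themselves, a Ring1b peak met a start window in all 8 Pax genes with a placed start, against 32.1% of the 19527 such genes. Pax4, with no placed start, could not be scored. A KAP1 peak did so in 7 of the 8, against 64.8%. All 7 had both proteins there, against 27.8%. The authors' tables list only promoters with a peak. A gene placed through them alone, as Pax3 was, therefore had a peak of at least 1 protein by construction. The shares of all genes include such genes too. With RefSeq starts alone, Ring1b was at the starts of all 7 Pax genes that have one, and KAP1 at those of 6. With peaks in the upper 50% of scores alone, KAP1 was at the starts of 3 genes, and with the summit required inside the window Ring1b was at those of 5. The gene with KAP1 at a start beyond the 6 in the authors' promoter class was Pax5. Its KAP1 peak scored 51.6, close to the list's lowest score of 50.01. That peak lay 899 bp beyond the gene's RefSeq start but outside the window of its deposited start. Over whole loci, all 9 Pax genes held a Ring1b peak, against 39.3% of genes, and all 9 held a KAP1 peak, against 75.5%. The median Pax locus was 65049 bp long and the median locus of all genes 27729 bp, and longer loci have more room for peaks. Set beside the background, the cover of Ring1b was larger by more than that of KAP1. Ring1b peaks covered 107692 of the 685781 bp in the 9 loci, or 15.7%, against 1.18% of the bases of all loci. KAP1 peaks covered 35384 bp, or 5.16%, against 3.19%.

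**Figure D2:**
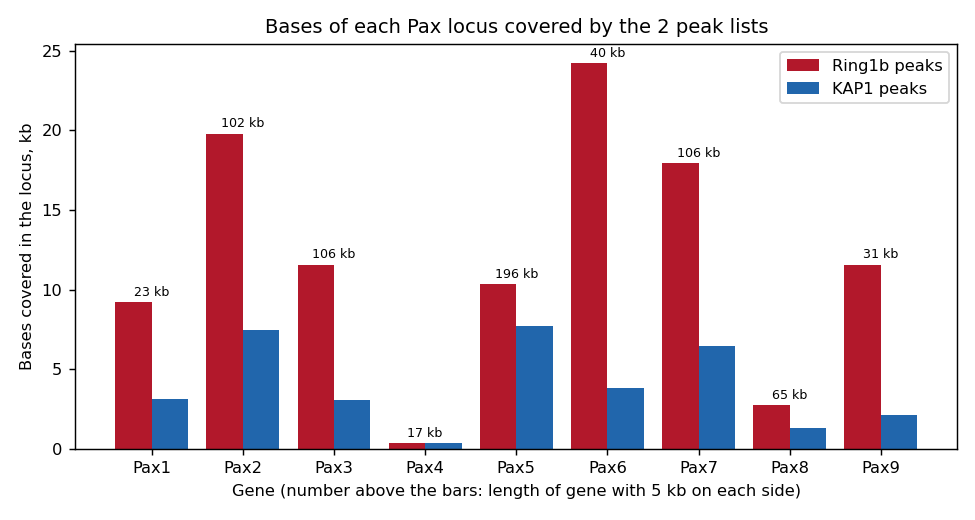
Kilobases of each Pax locus covered by Ring1b peaks and by KAP1 peaks (y axis) for the 9 genes (x axis), with the locus length above the bars and 1 library behind each list. Ring1b covered more than KAP1 in 8 genes, from 2749 bp at Pax8 to 24210 bp at Pax6, and Pax4 had almost none of either.

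**Figure D3:**
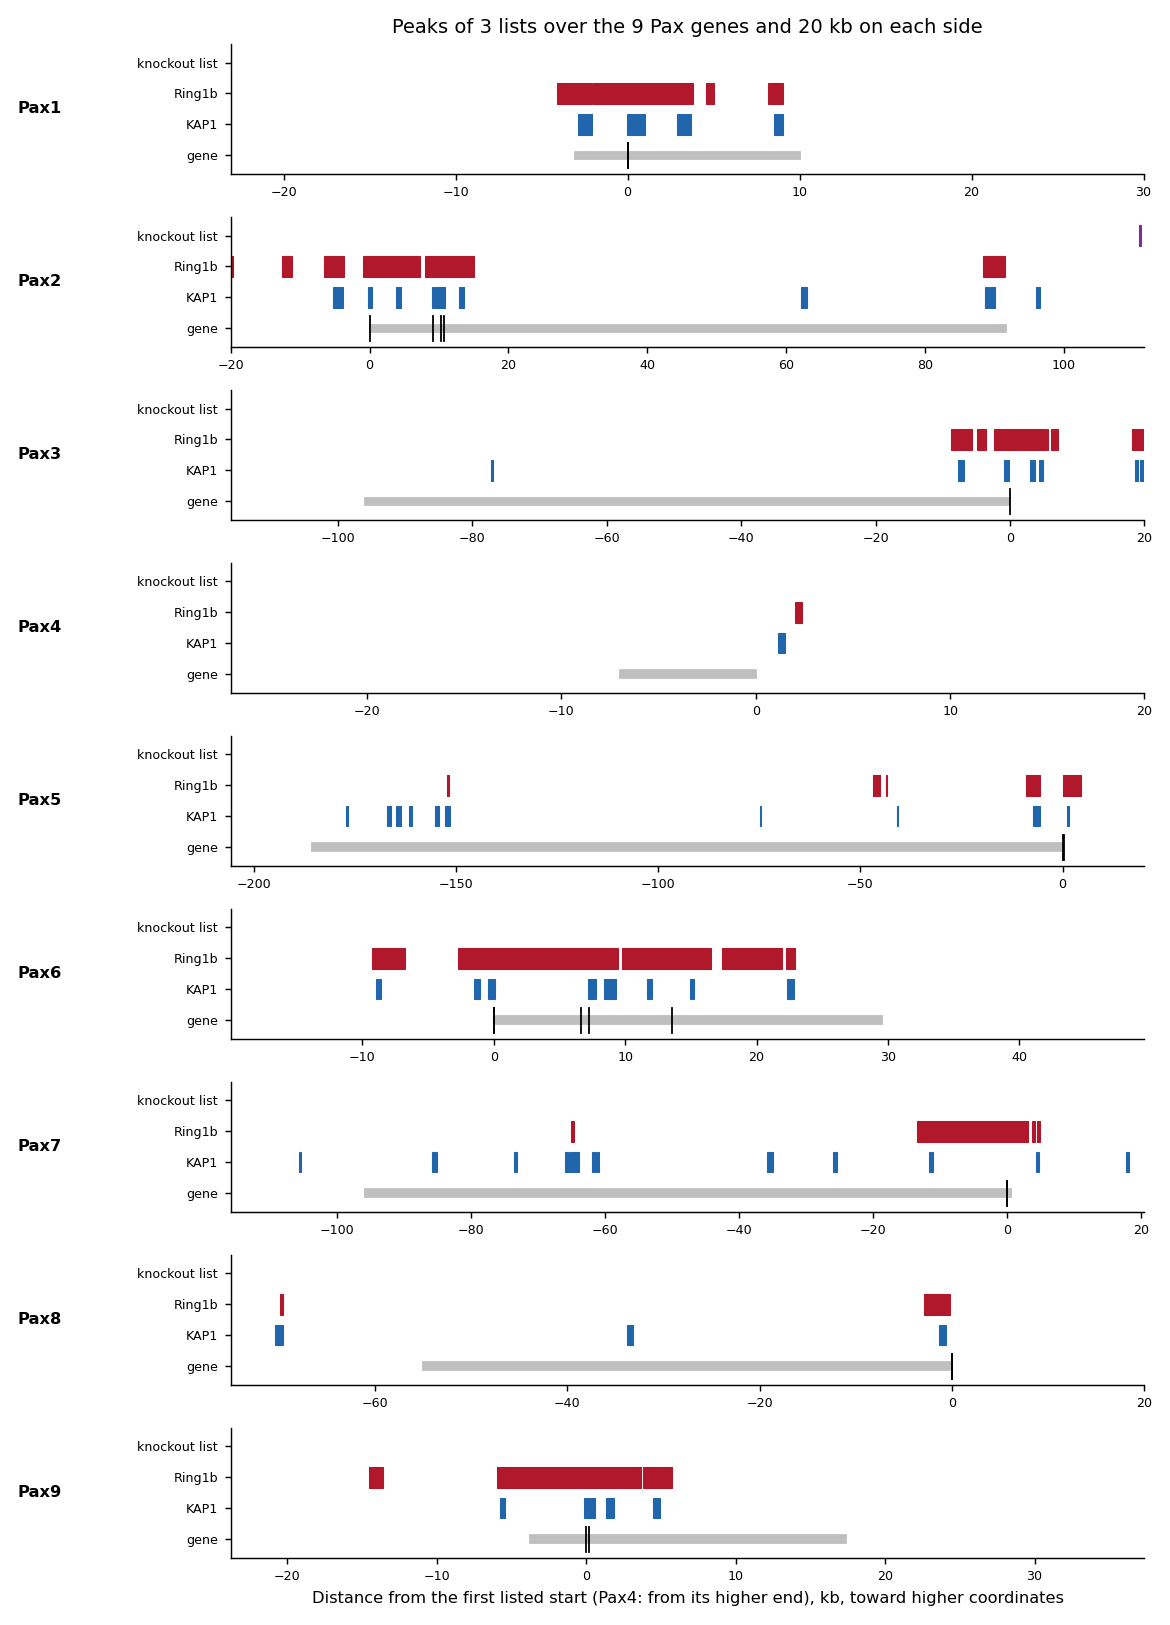
Peaks of the Ring1b and KAP1 lists along each of the 9 Pax genes, and of the knockout list, with 20 kb on each side, placed by distance from the first listed start in kb. Grey bars are genes, black ticks starts, and a thin outline keeps narrow peaks visible. Wide Ring1b peaks surround the starts of Pax1, Pax2, Pax6, Pax7 and Pax9, while many KAP1 peaks of Pax5 and Pax7 stand alone in the gene body.

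Pax1 and Pax9, which pattern the vertebral column and the pharyngeal pouches, each lay under a broad Ring1b domain. At Pax1 (chr2:147361930-147375049) a Ring1b peak of 5816 bp with a score of 3100 spanned the start, at chr2:147362989-147368804. It held 2 KAP1 peaks, scoring 109 over the start and 83.4 downstream of it. Every further KAP1 peak of Pax1 also met Ring1b, so that none of its 4 stood alone. Upstream of the start, a KAP1 peak of 189 met a Ring1b peak of 2671 over the long non-coding RNA gene AI646519. In the gene body, a KAP1 peak of 90.7 met a Ring1b peak of 538. Pax9 (chr12:56691693-56712824), needed also for teeth, had a Ring1b peak of 9629 bp at chr12:56689509-56699137, the 40th widest of the list, with a score of 3100. Inside it lay 3 KAP1 peaks scoring 92.6, 127 and 54.4, the strongest of them over the start. A second Ring1b peak of 1650.1 followed in the gene body and held a KAP1 peak of 50.3. Both genes thus had all their KAP1 peaks within Ring1b regions, 4 of 4 each, with scores that, save for 1 peak at Pax1, were below the upper quartile of the KAP1 list. Ring1b covered 39.9% of the Pax1 locus and 37.1% of the Pax9 locus.

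Among Pax2, Pax5 and Pax8, which act in the midbrain and hindbrain and then apart in kidney, B cells and thyroid, the amount of Ring1b differed widely. Pax2 (chr19:44746601-44838269), required for kidney, ear and optic nerve, had 7 Ring1b peaks covering 19780 bp, the 25th largest cover of all genes. Its first start was met by a Ring1b peak of 1761 with a KAP1 peak of 111. The second and the third start shared a Ring1b peak of 7048 bp with a score of 3100, at chr19:44754642-44761689, and had KAP1 peaks of 74.7 and 198. The third start therefore carried the strongest KAP1 peak at any Pax start, the only 1 of the 10 that passed the upper quartile of its list. Between the starts, a Ring1b peak of 3100 held a KAP1 peak of 126. At the far end of the gene, 2 KAP1 peaks of 96.9 and 71.1 lay within a Ring1b peak of 2279 that also reached the lncRNA 1700039E22Rik. The strongest KAP1 peak of the locus, 301 at chr19:44808710-44809583, stood in the gene body with no Ring1b.

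Pax5 (chr4:44524748-44710694), the master regulator of B-cell identity, had its strongest KAP1 peaks far from its strongest Ring1b peak. Its RefSeq start lay under a Ring1b peak of 4341 bp with a score of 3100, at chr4:44710536-44714876, with only the KAP1 peak of 51.6. Between 151398 bp and 166019 bp into the gene body stood 6 KAP1 peaks, at chr4:44543490-44559042, scoring 337, 118, 211, 328, 313 and 389.8. The last is the highest KAP1 score at any Pax locus, and 5 of the 6 passed the upper quartile of the list. Of these 6, 1 met a Ring1b peak, which scored 92.25, below the median of its list. Conversely, a Ring1b peak of 1634 at chr4:44663455-44665307 held no KAP1. Both proteins met over the lncRNA 5730488B01Rik inside the gene, where a Ring1b peak of 2463 held KAP1 peaks of 117 and 154.

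Pax8 (chr2:24420551-24475599), needed for the thyroid, had the least Ring1b of the genes with a promoter peak. Its single Ring1b peak, 2749 bp with a score of 2434, ended at chr2:24475372, short of both placed starts on the gene side, and held a KAP1 peak of 79.1. Its 300-base window printed above therefore met no peak, while its start window of 1 kb did. A KAP1 peak of 150.4 stood in the gene body over the lncRNA Gm13415 with no Ring1b. Ring1b covered 4.23% of the Pax8 locus, against 19.5% of Pax2 and 5.27% of the long Pax5 locus.

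Pax3 and Pax7 specify neural crest, dorsal neural tube and skeletal muscle, and Pax7 marks adult satellite cells. Pax3 (chr1:78101267-78197136) had a Ring1b peak of 3934 bp with a score of 3100 at its deposited start and a KAP1 peak of 83.7 beneath it. A second Ring1b peak of 2961, in the gene body, held a KAP1 peak of 164, the strongest of the locus. Beyond the start, Ring1b peaks of 229.99, 718 and 794 formed a chain, and the latter pair each held a KAP1 peak, of 63.35 and 70.5. Their summits lay 3 bp apart in both cases. At 18142 bp beyond the gene, outside the locus as defined, a Ring1b peak of 4000 bp with a score of 3100 covered the gene Gm2102 with KAP1 peaks of 92.7 and 225. The only KAP1 peak of Pax3 with no Ring1b scored 52.4.

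Pax7 (chr4:139737059-139833530) carried the broadest single Ring1b peak of the family, the third widest of all 13516, 16640 bp at chr4:139819554-139836193 with a score of 3144. Only 1 KAP1 peak lay in it, of 77.6, and the summits of the 2 peaks were 10289 bp apart. The KAP1 peak nearest to the start was 4423 bp away and scored 60.4. In the gene body 8 further KAP1 peaks ran from 53.0 to 323, 4 of them above the upper quartile, and 7 of the 8 met no Ring1b. The strongest, 323 at chr4:139767772-139769123, met a Ring1b peak of 51.9, close to the lowest score of its list. KAP1 peaks thus lay mainly under Ring1b at Pax3, 4 of 5, and mainly away from it at Pax7, where 3 of 10 met Ring1b.

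Pax4 and Pax6, which act in the endocrine pancreas, with Pax6 also the central gene of eye development, were the family's extremes. Pax6 (chr2:105668896-105698410) had the largest Ring1b cover, 24210 bp or 61.3% of its locus, the 15th largest of all genes. Its widest peaks, of 12178 bp and 5970 bp with scores of 3100, lay at chr2:105666177-105678354 and chr2:105678643-105684612. Joined with neighbours less than 1 kb away, they formed a domain of 25629 bp, the third widest of 11357, with 7 KAP1 peaks inside. All 4 starts placed for Pax6 fell within these 2 Ring1b peaks, while KAP1 did not reach all of them. The first start, at chr2:105668896, had a KAP1 peak of 66.8, and those at chr2:105675512 and chr2:105676128 shared a peak of 71.0. The last start, at chr2:105682463, had none within 1 kb, its nearest KAP1 peak being 1353 bp away. Ring1b was thus at 4 of 4 starts and KAP1 at 3. The strongest KAP1 peak of the locus, 339.7, lay 1137 bp downstream of the nearest start, within the widest Ring1b peak. A Ring1b peak of 4573 bp with a score of 3100 in the gene body, at chr2:105686281-105690853, held no KAP1. All 7 KAP1 peaks of the locus met Ring1b.

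Pax4 (chr6:28442334-28449340), required for insulin-producing beta cells, had no peak of either list within its gene. A KAP1 peak of 80.2 lay 1138 bp and a Ring1b peak of 111 lay 1997 bp beyond the gene's higher coordinate, and the 2 peaks did not overlap. The reference used here gives it neither strand nor start. Pax4 was also the only member with fewer Ring1b than KAP1 bases, 360 against 367. Its Ring1b cover ranked 7152nd of 21031, where the other 8 members ranked between 15 and 1376.

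**Figure D4:**
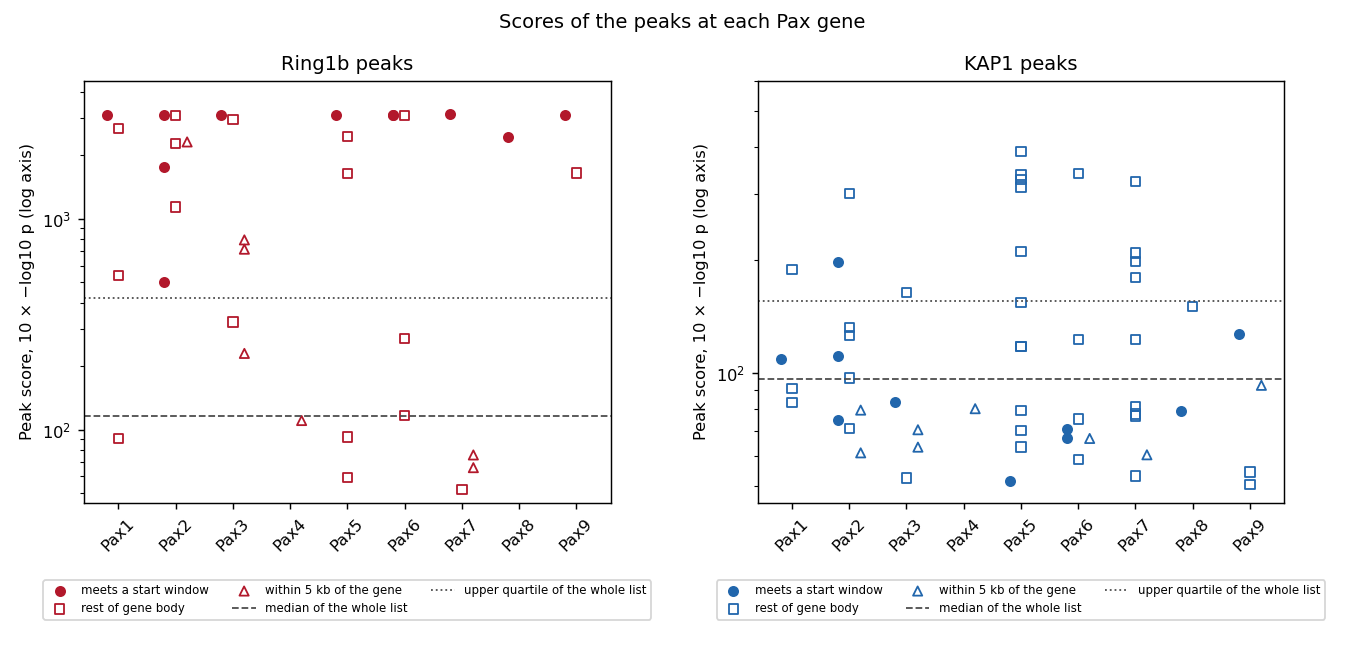
Authors' score (log axis) of every Ring1b peak (left) and KAP1 peak (right) in each Pax locus, marked by place, with the median and upper quartile of the whole list as lines. All 11 Ring1b peaks at start windows lie above the upper quartile of 421, and of the 10 KAP1 peaks at start windows 1 lies above the upper quartile of 156.

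Over the 9 loci pooled, the median Ring1b score was highest at the starts and the median KAP1 score highest in the gene bodies, the latter mostly through Pax5 and Pax7. The 11 Ring1b peaks that met a start window were 5816 bp wide and scored 3100 at the median, and all 11 passed the upper quartile of the list. A peak counted as at a start when any of its bases met a start window, a rule that favours wide peaks. What the rule added to these medians was not tested. The 17 Ring1b peaks in gene bodies had a median score of 1136, and the 7 outside the genes had a median of 229.99. By contrast, the 10 KAP1 peaks at start windows had a median score of 81.4, below the list median, with a range of 51.6 to 198. The 37 KAP1 peaks in gene bodies had a median of 122 and reached 389.8, and 13 of them passed the upper quartile, against 1 of 10 at starts. Of these, 20 of the 37 and 9 of the 13 lay in Pax5 and Pax7. Without those genes the median was 96.9 in gene bodies (17 peaks) and 83.7 at starts (9 peaks). Pax9 had the reverse order, with 127 at its start and 54.4 and 50.3 in its body. Pax1 was mixed, with 109 at its start, 90.7 and 83.4 downstream in its body, and 189 upstream of both placed starts. Gene body here means the annotated span, so the counts include that peak of 189 and the Pax1 Ring1b peak of 2671, also upstream. The KAP1 peak of 189 was 1 of the 4 gene-body peaks above the upper quartile outside Pax5 and Pax7. The median KAP1 score was 83.7 for the 35 peaks with Ring1b and 120.3 for the 20 without, with overlapping ranges of 50.3 to 389.8 and 52.4 to 337. Most of the peaks without Ring1b lay in Pax5 and Pax7. Those of the other genes scored 52.4, 61.2, 80.2, 150.4 and 300.8, with 80.2 in the middle, so the higher median came mostly through Pax5 and Pax7. Peaks of 1 gene share its chromatin and library and are not replicates.

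Wide and top-scoring Ring1b peaks were frequent in the family. A Ring1b peak of 5 kb or wider lay in 5 Pax loci, Pax1, Pax2, Pax6, Pax7 and Pax9, against 1.26% of all loci. A Ring1b score of 3100 or more was reached in 7 of 9, all but Pax4 and Pax8, against 3.59%. Of the 35 Ring1b peaks in the loci, 24 met a KAP1 peak, 68.6% with an exact 95% interval of 50.7 to 83.1, against 76.6% of the whole list. That interval treats the peaks as independent, though many came from the same locus, so it cannot decide whether the shares differ. Conversely, 35 of the 55 KAP1 peaks met Ring1b, 63.6% with an interval of 49.6 to 76.2, against 13.7% of all KAP1 peaks, in loci where Ring1b covered more of the bases than elsewhere. Intervals cover counting error only. Of the 35 Ring1b peaks, 6 were 5 kb or wider, against 1.83% of the list, and 10 scored 3100 or more, against 5.8%. All 6 wide peaks held KAP1, as did 86.2% of the 247 such peaks in the list.

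Summits showed how closely the 2 proteins lay. Distances ran from the Ring1b summit to the nearest summit among the KAP1 peaks that overlapped that Ring1b peak. In the 24 Ring1b peaks with KAP1 the median was 108 bp, with a range of 3 to 10289 bp. KAP1 peaks without overlap were left out. At Pax7 such a peak, with its summit at chr4:139837553, lay nearer to the Ring1b summit than the overlapping peak did. Within 200 bp, a distance chosen after the values were seen and equal to the commonest fragment length in the labels, lay 15 of 24, or 62.5%, against 62% of all Ring1b peaks with KAP1. For Ring1b peaks of 1 kb or wider, 12 of 19 Pax pairs were within 200 bp, with a median of 105 bp, against 43.6% and 250 bp over the list. The close pairs included Ring1b peaks with scores from 51.9, in the Pax7 gene body, to 3100. Summits were 6 bp and 72 bp apart at the 2 Pax9 peaks, 42 bp at the third Pax2 start, 62 bp at the wide Pax6 peak, 105 bp at the Pax3 start and 111 bp at Pax8. They were 396 bp apart at the Pax1 start, 522 bp at Pax5, 1378 bp at the last Pax6 start and, at most, 10289 bp at Pax7. Pax2, Pax3, Pax6, Pax8 and Pax9 thus had a close pair in a Ring1b peak that met a start window, though at Pax8 both summits lay over 1 kb from the start. Pax1, Pax5, Pax7 and the last Pax6 start had none. Of the 15 close pairs, 9 had a KAP1 score below the list median.

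**Figure D5:**
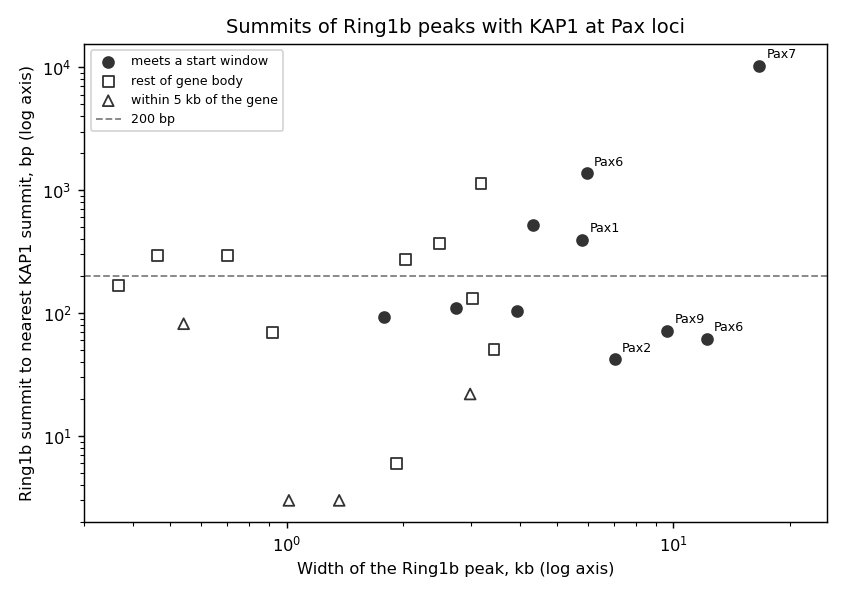
Distance between the Ring1b summit and the nearest summit of an overlapping KAP1 peak in bp (y, log axis) against the width of the Ring1b peak in kb (x, log axis). Points are the 24 Ring1b peaks with KAP1 in the 9 loci, marked by place and named from 5 kb of width. Of the pairs, 15 lie under the dashed line at 200 bp, and the widest peak, at Pax7, has the largest distance, 10289 bp.

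No Pax locus held a peak of the knockout list, 0 of 9 against 18.1% of all loci, and a count of 0 in 9 allows a share of up to 33.3%. At the starts of the 8 genes with a placed start the count was also 0, against 2.93% of genes. None of the 35 Ring1b peaks met a knockout-list peak, which allows a share of up to 8.57%, where 0.326% of the whole Ring1b list did. The nearest knockout-list peak lay 19280 bp from Pax2 and between 25285 bp and 608498 bp from the others. The count of 0 at Pax genes thus stood beside a low overlap of the Ring1b lists as a whole. Both lists used the same control library, but loss of KAP1, cell line and tamoxifen in place of vehicle differ together between the precipitated cells and cannot be told apart. Peaks of the knockout list were also narrower, with a median of 158 bp against 587 bp.

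The partners and targets of Pax proteins were described in the same tables, as a list of 52 genes from textbook knowledge, among them the Eya and Dach cofactors, kidney, thyroid, muscle, B-cell, pancreas and eye regulators. In the authors' deposited promoter tables, 32 of the 52 had both proteins, against 24.8% of all genes, and 10 had Ring1b alone, against 4.04%. A further 5 had KAP1 alone, against 34.3%, and 5 had neither, against 37.5%. Ring1b was thus in 42 of 52 and KAP1 in 37, against 28.7% and 58.6% of all genes. The Ring1b score of 3100 at a start was shared by many of them, among them Dach1, Ebf1 and En1, whose KAP1 peaks there scored 188, 92.7 and 141. Among those without either protein at the promoter were Blnk of B cells, Myf5 of muscle and Tg of the thyroid. A Ring1b peak of 5 kb or wider lay in 18 of the 52 loci, against 1.26% of all loci, and a knockout-list peak in 7, against 18.1%. In the T-box family, another set of developmental regulators with 17 members, 10 promoters had both proteins, against 24.8% of all genes, and 3 had Ring1b alone, against 4.04%, with Tbx4 in 2 classes. KAP1 alone stood at 2, against 34.3%, and neither protein at 3, against 37.5%. A wide Ring1b peak lay in 6 of the 17 loci, against 1.26%.

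By KAP1 cover, Ring1b cover and locus length, combined on a log10 scale over the 2 lists, the gene nearest to Pax2 was Pax7, at a distance of 0.0766, and the reverse also held. The nearest to Pax1 was Prdm13 at 0.0631, to Pax9 Sall3 at 0.0904 and to Pax6 Tfap2a at 0.104. Pax3 was nearest to Nfatc1 at 0.131, Pax5 to Pcdha5 at 0.110, Pax8 to Tgfbr1 at 0.0667 and Pax4 to Fuom at 0.0603. Of the neighbours outside the family, Prdm13, Sall3 and Tfap2a are themselves developmental transcription factors, while Fuom, Pcdha5 and Tgfbr1 are not.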

How the data were processed

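Chromatin immunoprecipitation and sequencing of KAP1 and Ring1b covered 5 libraries, 1 in each group. The build was mm10 (GRCm38), and the submitters' processing notes name MACS 1.4.2, bedtools 2.16.2, CASAVA 1.8.2 and Bowtie2, with settings not given in these sources. Deposited by the authors were 3 lists of peaks, a library against another in each, and 6 tables of genes and promoters by class. The peak score is a deposited value, 10 times the −log10 p per the file headers. Of 32 regions in the Pax rows of the tables, 31 had the borders and 32 the summit of a listed peak.

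Peaks were joined to genes with Python 3.11.15 and pandas 2.3.3, with an overlap of at least 1 bp and coordinates counted from 1. Gene spans, starts and promoter sequences came from RefSeq tables of GRCm38.p6, where Pax3 and Pax4 have no promoter entry. Ring1b peaks less than 1 kb apart were joined for domain widths. The joins were tested on simulated intervals. Intervals on shares are exact (Clopper-Pearson, 95%), and a count of 0 was given a limit of 3 counts. No test was run, since each group held 1 library. The members, the lists and the rules for naming genes were chosen with earlier results of these data known. All 9 Pax genes were named, with up to 4 of the 52 list genes that scored highest for Ring1b at a promoter and up to 4 with neither protein, ties by symbol. Some genes that meet this rule are not reported here. The nearest gene to each member was set by Euclidean distance over log10 of covered bases plus 1 and of locus length.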

Additional observations from a re-analysis of the deposited data

How the results depend on the processing

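Of 37 alternative values, 30 kept their count within 1.5 times or their share within its interval, and 7 did not. Several of the 30 were counts of 0 that stayed 0, or recounts of the same class membership, and had little room to move. The interval treats peaks as independent and served only as a yardstick. With peaks in the upper 50% of scores, Pax genes with KAP1 at a start fell from 7 to 3, and Ring1b peaks with KAP1 from 68.6% to 39.3%. With the summit required inside the window, genes with Ring1b at a start fell from 8 to 5. Ring1b peaks with KAP1 were 20% when KAP1 had to cover 50% of the peak, 91.4% with KAP1 within 1 kb, and 83.3% after joining peaks less than 1 kb apart. With flanks of 20 kb, 1 Pax gene, Pax2, had a knockout-list peak in place of 0. The summit distance alternatives and the match by symbol, which moved whole-gene Pax genes with both proteins from 8 to 7, were chosen after seeing the data. The causes were not tested. No paired analysis was possible because each group held 1 library. Read depth limits which weak peaks were called, and the sources used here give none.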

Other observations

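Several peaks beside the Pax genes lay over long non-coding RNA genes of the same loci, where both proteins met. At Pax2, a Ring1b peak of 2314 and a KAP1 peak of 79.5 lay over Gm35610, upstream of the first start, with summits 22 bp apart. At Pax3, the Ring1b peak of 794 and the KAP1 peak of 70.5 lay over Gm33152. Upstream of Pax6, outside the locus as defined, a Ring1b peak of 763 and a KAP1 peak of 66.3 met Paupar, with summits 535 bp apart. Both peaks also lay wholly inside the lncRNA gene Pax6os1, which overlapped 4154 bp of the widest Pax6 Ring1b peak as well. At Pax9, the wide Ring1b peak covered 5259 bp of Gm15524, and a KAP1 peak of 92.6 lay in the same gene. Where these RNA genes overlap or adjoin a Pax gene, a peak cannot be given to either gene alone.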
